A study of Mus musculus with 6 samples.

Results

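The genes described here are the 3 sestrins, Sesn1, Sesn2 and Sesn3, and 7 genes of the ATF4 pathway, Atf4, Ddit3, Trib3, Chac1, Asns, Psat1 and Ppp1r15a. These 10 genes were taken by symbol from the 38926 genes that every count file lists, and all 10 were found. The set was chosen by the higher counts of Sesn2 in the knockout samples, so the comparison of genotypes is given for these genes as a description, with no test read from it. The question posed was whether Sesn2 moved with targets of p53 or with targets of ATF4.

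RNA was sequenced from HSCs (hematopoietic stem cells) that had been sorted by surface markers from mouse fetal liver at day E14.5 of embryonic life. The 3 control samples were labelled Vav-Cre; Dpy30F/+ and the 3 knockout samples Vav-Cre; Dpy30F/-, and each of 3 litters gave 1 sample of each genotype. Vav-Cre is a transgene that drives Cre recombinase in blood-forming cells, and all 6 samples carried it together with a floxed Dpy30 allele. The controls are therefore heterozygous once Cre has acted, and any cell in which Cre failed keeps Dpy30. Dpy30 is a core subunit of the complexes that methylate histone H3 at lysine 4.

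Sestrins are stress-induced proteins that restrain the growth kinase complex mTORC1, and SESN2 is also a sensor of leucine. Sesn1 and Sesn2 are known targets of p53, Sesn2 is in addition a known target of ATF4 and of the antioxidant factor NRF2, and Sesn3 is known for its control by FOXO factors. In the integrated stress response, kinases that sense amino acid shortage, unfolded protein, heme shortage or viral RNA phosphorylate the initiation factor eIF2. Most protein synthesis then slows while the Atf4 mRNA is translated more, so the level of Atf4 mRNA does not by itself give the level of ATF4 protein, and the mRNAs of its targets are the usual readout in RNA data. ATF4 binds a composite C/EBP-ATF element, abbreviated CARE.

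Sequences matching that element are shown for the 3 genes that carried it in the promoter stretch searched. Sesn2 did not carry it there, and neither did Atf4, Ddit3, Psat1, Ppp1r15a, Sesn1 and Sesn3. All 10 genes matched the RefSeq promoter table (GRCm38.p6), which holds 250 bases before and 50 bases after each start. The letters searched for CARE were TGATGNAA on both strands. They were found for Chac1, Trib3 and Asns, or 3 of the 10 genes, against 4.51% of the 27025 genes in the table. In the lines below, which run 5′ to 3′ on the strand of the gene, capitals mark the match.
Chac1: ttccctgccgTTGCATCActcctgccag
Trib3: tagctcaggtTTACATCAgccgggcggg
Asns: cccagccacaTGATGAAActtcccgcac
The Chac1 stretch is chr2:119351039-119351066 (plus strand), with its match from -193 to -186 counted from the start. The Trib3 stretch is chr2:152344029-152344056 (minus strand), with its match from 15 to 22 bases after the start. The Asns stretch is chr6:7693215-7693242 (minus strand), with its match from -23 to -16. These offsets count from the RefSeq starts, which differ from the GENCODE gene positions given further below. By the GENCODE positions the Trib3 match lies before the gene and the Asns match within it.

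The Sesn2 window held no CARE letters. These were found for only 14 of 32 other ATF4 targets (43.8%), so their absence does not set Sesn2 apart. The Sesn2 window did hold a match to TGACNNNGC, the core letters of the antioxidant response element that NRF2 binds. So did Asns and Ppp1r15a, or 3 of the 10 genes in all. The letters were found for 10 of 32 other ATF4 targets (31.2%), 6 of 10 NRF2 targets (60%) and 14.0% of the genes in the table.
Sesn2: cgcagcgggcTGACAGAGCcgggcgagcg
This stretch is chr4:132510474-132510502 (minus strand), with the match from -36 to -28 of the RefSeq start. By the GENCODE positions this match lies within the gene. None of these matches overlapped another. The decamer letters of p53 binding sites were matched for 1 of the 10 genes, Sesn1 (2 windows), against 9.55% of all genes, and not for Sesn2. Only 9 of 24 p53 targets with a promoter entry (37.5%) held them. Sesn1 also held GTAAACA, the FOXO element, on the opposite strand, as did 4.05% of all genes on either strand. A match describes letters in this window only, and control elements outside the window were not searched.

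The files hold between 31897737 and 43394700 counts assigned to genes per sample, of which the 10 features with most counts took 51.6% to 70.3%. Dpy30 was at 24.6, 24.2 and 31.6 CPM (counts per 1000000 counts) in controls 1 to 3 and at 7.93, 5.95 and 13.7 CPM in knockouts 1 to 3, in the order of the litters. CPM values were scaled with the trimmed mean of M values, which sets aside the most extreme genes. Of 13646 genes tested with edgeR's quasi-likelihood test, 0 had an adjusted p under 0.05 (0%), while 888 had an unadjusted p under 0.05 (6.51%), 582 of them higher in the knockout (4.26%) and 306 lower (2.24%). With limma-voom 0 genes were called, with 1008 at an unadjusted p under 0.05. With DESeq2, 138 of 13390 genes were called (1.03%), 104 of them higher in the knockout (0.777%) and 34 lower (0.254%). The labels do not say whether a sample was 1 embryo or a pool. Knockout 3 stood apart in its cell markers: the summed level of 17 HSC and progenitor genes was 440 CPM there and 930 to 1248 CPM in the other 5 samples, all 17 being detected in both genotypes. Knockout 2 stood apart in 4 endothelial genes, which summed to 97.2 CPM there and 1013 to 1639 CPM in the other 5 samples. The 11 erythroid genes matched summed to 1198, 2235 and 2122 CPM in controls and 929, 1169 and 2740 CPM in knockouts. Markers of other cell types were thus present beside those of HSCs, and their part in the levels below was not tested.

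Sesn2 (chromosome 4, 132492032 to 132510501, minus strand, GRCm38; protein-coding) was at 0.794, 6.79 and 3.77 CPM in controls 1 to 3 and at 6.79, 32.6 and 57.4 CPM in knockouts 1 to 3. These levels rest on 23, 254 and 166 counts in controls and 270, 1183 and 2011 counts in knockouts. Knockouts 2 and 3 lay far above every control, while knockout 1 sat level with control 2. Under upper-quartile scaling control 2, at 7.02, passed knockout 1, at 6.82 on that scale, so the genotypes then overlapped. The control mean was 3.78 ± 3.00 CPM and the knockout mean 32.3 ± 25.3 CPM (SD, n = 3 each), a ratio of 8.53. The fitted log2 fold change was 3.09 (SE 0.97). Within litters the knockout was above its control in 3 of 3, by 3.01, 2.25 and 3.91 on the log2 CPM scale. Without knockout 3 the fitted log2 fold change was 2.38, and without control 2 it was 3.81. Sesn2 did not pass in edgeR's quasi-likelihood test (adjusted p = 0.686) and was among the 104 genes that DESeq2 called higher (adjusted p = 0.0313). It was also the 1 gene of the 9 tested with an unadjusted edgeR p under 0.05, as 6.51% of all tested genes had. Since this difference chose the set, nothing is read from these counts.

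The other sestrins did not share this pattern. Sesn1 (chromosome 10, 41809935 to 41908424, plus strand) was at 37.1, 45.4 and 40.3 CPM in controls and 34.5, 39.4 and 17.3 CPM in knockouts. Knockout 2 lay within the range of the controls, knockout 1 just below it and knockout 3 far below it. The log2 fold change of Sesn1 was -0.43 (SE 0.37), and Sesn1 was lower than its litter control in 3 of 3 litters, with the difference in litters 1 and 2 at -0.10 and -0.21. Sesn3 (chromosome 9, 14275067 to 14333101, plus strand) had few counts, with 163, 13 and 235 in controls and 110, 22 and 61 in knockouts. Both samples of litter 2 were the lowest of their genotype for Sesn3, and the genotypes overlapped. Its log2 fold change was -1.14 (SE 1.24). In bulk RNA, fewer cells that express a gene and less RNA per cell cannot be told apart, for these genes and those that follow.

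**Figure D1:**
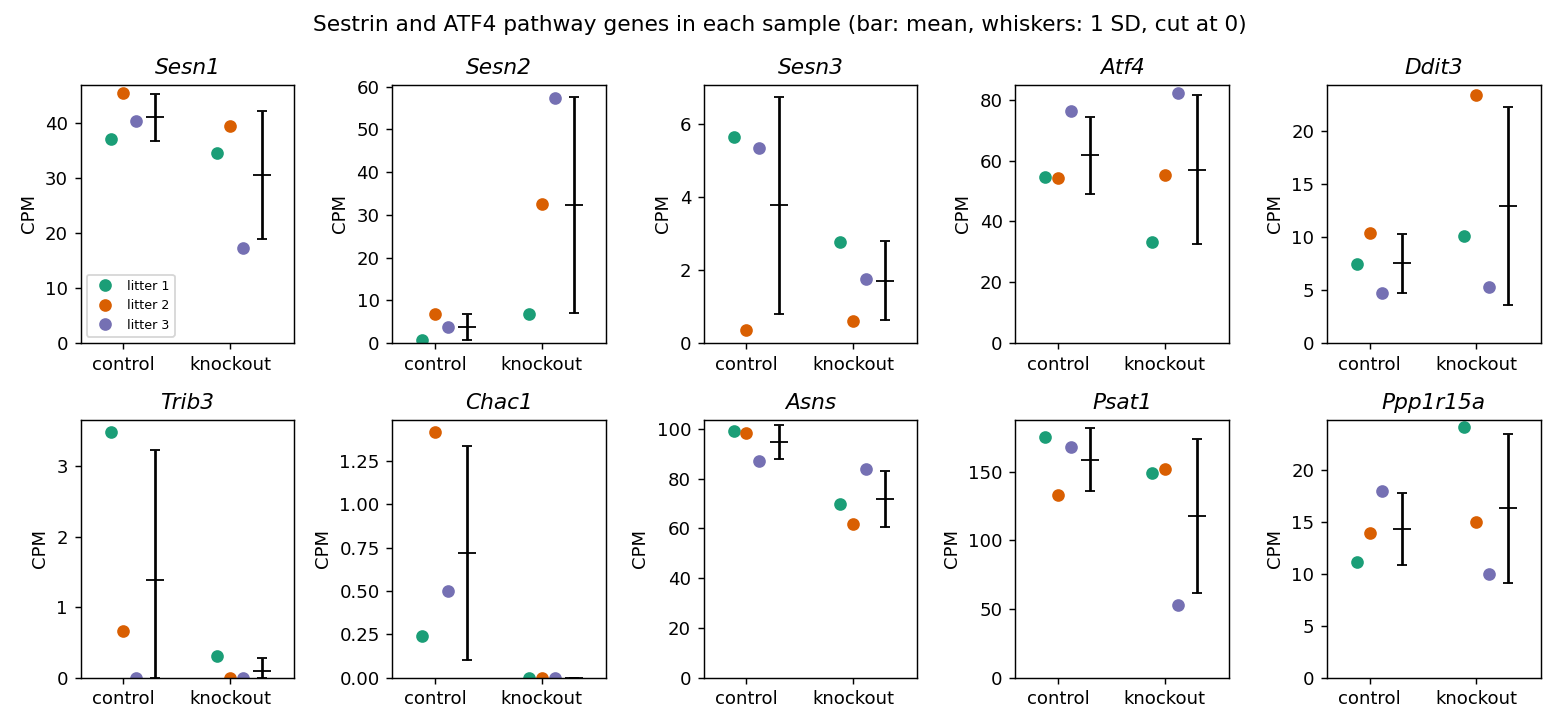
CPM of each of the 10 genes (y axis, from 0 in every panel) in control and knockout samples (x axis), coloured by litter, with the mean and 1 SD of the 3 samples beside them. Sesn2 is at 32.6 and 57.4 CPM in knockouts 2 and 3, while Chac1 is at 0 in all 3 knockouts and Atf4 overlaps between genotypes.

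Atf4 (chromosome 15, 80255184 to 80257541, plus strand), the transcription factor of the response, was at 54.6, 54.3 and 76.4 CPM in controls and 33.3, 55.4 and 82.5 CPM in knockouts. The lowest and the highest of the 6 values were both knockouts, and the genotypes overlapped. The log2 fold change was -0.11 (SE 0.36). It turned positive when control 3 or knockout 1 was left out, at 0.07 and 0.16.

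The machinery upstream of ATF4 was followed with 16 genes of the eIF2 kinases and of eIF2 and its exchange factor, all of them tested. None passed in edgeR or DESeq2, and 0 had an unadjusted edgeR p under 0.05, against 6.51% of all tested genes. Their median log2 fold change was -0.07, beside 0.01 over all tested genes, with 6 positive and 10 negative. Among the kinases, Eif2ak3 (PERK, which senses unfolded protein) was at 5.11, 6.63 and 5.76 CPM in controls and 2.26, 1.74 and 0.885 CPM in knockouts. Every knockout was below every control for Eif2ak3, with a log2 fold change of -1.84 (SE 0.86); over all tested genes 7.74% showed that separation downward. Eif2ak4 (GCN2, which senses amino acid shortage) was at 16.4, 17.1 and 18.9 CPM in controls and at 32.2, 16.4 and 35.6 CPM in knockouts, so that knockout 2 lay at the level of the controls (log2 fold change 0.68, SE 0.41). Eif2b4, a subunit of the exchange factor, was the other of the 16 with all knockouts below all controls (log2 fold change -1.19, SE 0.71). Eif2s2, which encodes the beta subunit of eIF2, overlapped between genotypes (log2 fold change -0.45, SE 0.27).

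The 2 amino acid synthesis enzymes were the most highly expressed of the ATF4 targets among the 10 genes. Asns (asparagine synthetase; chromosome 6, 7675169 to 7693254, minus strand) was at 99.1, 98.4 and 87.0 CPM in controls and 69.9, 61.7 and 83.9 CPM in knockouts. All knockouts lay below all controls, with control 3 and knockout 3 close together. Asns was the 1 gene of the 9 tested to do so (11.1%, against 7.74% of all tested genes). The means were 94.8 ± 6.81 and 71.8 ± 11.2 CPM (SD, n = 3 each), with a log2 fold change of -0.40 (SE 0.23). Psat1 (phosphoserine aminotransferase, of serine synthesis; chromosome 19, 15904678 to 15947337, minus strand) was at 175, 133 and 168 CPM in controls and 149, 152 and 53.1 CPM in knockouts. Knockouts 1 and 2 were inside the control range for Psat1 and knockout 3 was far below it (log2 fold change -0.43, SE 0.39; -0.07 without knockout 3).

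Chac1 and Trib3, which are strongly induced by ATF4 in stressed cells, were near or at 0 in the knockouts. Chac1 (a glutathione-degrading enzyme; chromosome 2, 119351229 to 119354381, plus strand) had 7, 53 and 22 counts in controls and 0 counts in each knockout. The controls averaged 0.719 ± 0.618 CPM (SD, n = 3). A level of up to 3 counts per library, 0.0755 to 0.0857 CPM, cannot be told from 0 in the knockouts, and against that floor Chac1 was at least 8.85-fold lower. Control 2 carried most of the control counts, and without it the bound was at least 4.56-fold. Chac1 did not pass the filter on low counts, so it has no value in the fit of 13646 genes. Trib3 (a pseudokinase that feeds back on ATF4; chromosome 2, 152337422 to 152344032, minus strand) had 101, 25 and 0 counts in controls and 12, 0 and 0 in knockouts. Control 3 was thus also at 0, and most of the Trib3 counts came from control 1. The fitted log2 fold change of -3.72 (SE 2.41) was -1.69 without control 1 and -8.66 without knockout 1.

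Ddit3 and Ppp1r15a form the arm that ends or worsens the response. Ddit3 (the transcription factor CHOP; chromosome 10, 127290774 to 127296288, plus strand) was at 7.46, 10.3 and 4.74 CPM in controls and 10.04, 23.3 and 5.31 CPM in knockouts. Only knockout 2 lay above all controls for Ddit3, although in each litter the knockout was the higher, by 0.43, 1.17 and 0.16 on the log2 scale. The log2 fold change was 0.78 (SE 0.70), and it was 0.03 without knockout 2. Of the exon length of Ddit3, 3.97% overlaps Mars on the other strand, and the strand setting of the counting is not given in the sources used here. Ppp1r15a (GADD34, which directs the phosphatase that resets eIF2; chromosome 7, 45522916 to 45526268, minus strand) was at 11.1, 13.9 and 17.9 CPM in controls and 24.1, 14.9 and 9.94 CPM in knockouts. Litter 1 and litter 3 went in opposite directions for Ppp1r15a, by 1.12 and -0.85, and the fitted log2 fold change was 0.19 (SE 0.50).

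**Figure D2:**
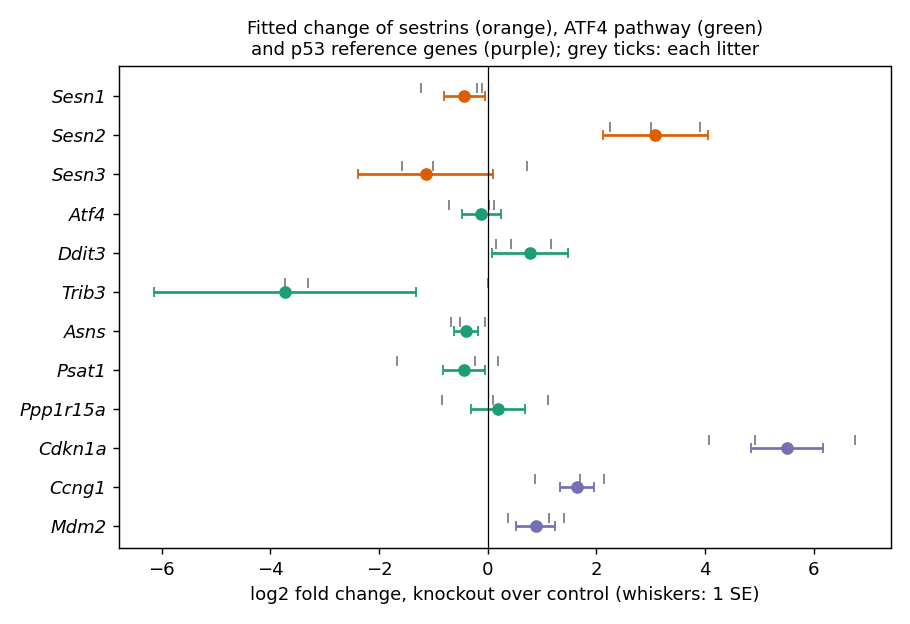
Fitted log2 fold change of knockout over control (x axis) with 1 SE for the 9 tested genes of the set and for the p53 targets Cdkn1a, Ccng1 and Mdm2, with the difference in each litter as a grey tick. Sesn2 at 3.09 is the 1 gene of the set whose 3 litters all lie beyond 2 on the positive side; Asns at -0.40, Psat1 at -0.43 and Atf4 at -0.11 lie near 0.

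Levels were also compared between genes per kilobase of annotated exon. In controls the order of mean CPM per kilobase was Psat1 at 37.3 ± 5.35, Asns at 34.7 ± 2.49, Atf4 at 26.2 ± 5.37, Sesn1 at 10.3 ± 1.06, Ppp1r15a at 4.87 ± 1.17, Ddit3 at 4.38 ± 1.63, Sesn2 at 1.09 ± 0.863, Trib3 at 0.652 ± 0.871, Chac1 at 0.439 ± 0.378 and Sesn3 at 0.247 ± 0.194 (SD, n = 3 each). Psat1 and Asns differed by less than the larger of their SDs, as did Ppp1r15a and Ddit3 and each pair of neighbours among the last 4 genes. In knockouts Sesn2 stood at 9.29 ± 7.29 CPM per kilobase, next to Sesn1 at 7.63 ± 2.92 and Ddit3 at 7.52 ± 5.45, which did not differ beyond their spread. Psat1, Asns and Atf4 kept the first places, at 27.7 ± 13.2, 26.3 ± 4.11 and 24.2 ± 10.4 CPM per kilobase (SD, n = 3 each).

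A wider list of 42 other ATF4 targets was read in the same way, of which 39 were tested. None passed in edgeR or DESeq2, and at an unadjusted edgeR p under 0.05 there were 3 higher and 2 lower. Over all tested genes 4.26% were higher and 2.24% lower at that threshold. Their median log2 fold change was -0.25, with 14 positive and 25 negative, beside a median of 0.01 and 50.8% positive over all tested genes. All knockouts were below all controls for 9 of the 39 (23.1%, against 7.74% of all tested genes) and above them for 4 (10.3%, against 6.39%). Without knockout 3 there were 13 positive and 26 negative, and the separated genes were 11 below (28.2%, against 12.9% of all) and 5 above (12.8%, against 12.04% of all). The transaminase gene Got1 was at 24.4, 21.2 and 27.5 CPM in controls and 9.64, 12.1 and 5.23 CPM in knockouts (log2 fold change -1.44, SE 0.47). Slc7a1, a transporter of cationic amino acids, was at 136, 109 and 123 CPM in controls and 87.9, 79.6 and 73.0 CPM in knockouts (log2 fold change -0.61, SE 0.21). Both showed every knockout below every control.

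Some targets on this list went the other way. Ero1l, an oxidase of the endoplasmic reticulum, was at 40.7, 32.3 and 37.8 CPM in controls and 50.7, 55.5 and 147 CPM in knockouts (log2 fold change 1.19, SE 0.43). Wars, a tRNA synthetase that interferon also induces, had a log2 fold change of 0.96 (SE 0.40). Slc7a11, the cystine transporter that NRF2 controls as well, had 19, 63 and 18 counts in controls and 118, 199 and 140 in knockouts. Its log2 fold change was 2.18 (SE 1.05). Cebpb had the largest log2 fold change of this list, 3.41 (SE 1.46), from 17, 10 and 13 counts in controls and 101, 9 and 331 in knockouts. Knockout 2 was below every control in CPM of Cebpb. Slc7a11 and Cebpb were chosen after their values were seen. CARE letters were present for 14 of the 32 genes of this list with a promoter entry (43.8%) and for 1 of 24 p53 targets (4.17%).

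The list of p53 targets held 34 genes other than sestrins, 32 of them tested. Its median log2 fold change was 1.03, with 25 positive and 7 negative, and 12 of the 32 had every knockout above every control (37.5%, against 6.39% of all tested genes) while 0 had every knockout below. Without knockout 3 there were again 25 positive and 7 negative, with 13 above (40.6%, against 12.04% of all) and 1 below. In edgeR 0 of the 32 were called, while 9 had an unadjusted p under 0.05, all higher. Over all tested genes 4.26% were higher and 2.24% lower at that threshold. In DESeq2 the 2 genes Cdkn1a and Ccng1 were called. That this class stood higher in the knockout was known when the list was drawn up, so these counts are no independent support. Cdkn1a, which encodes the cell cycle inhibitor p21, was at 1.93, 2.995 and 1.45 CPM in controls and 33.5, 92.5 and 164 CPM in knockouts (log2 fold change 5.51, SE 0.67). Ccng1, which encodes cyclin G1, was at 88.1, 71.0 and 82.0 CPM in controls and 161, 229.6 and 364 CPM in knockouts (log2 fold change 1.65, SE 0.32). Both were lowest in knockout 1 and highest in knockout 3, as Sesn2 was. That order held for 9 of the 32 p53 targets (28.1%), 7 of the 39 ATF4 targets (17.9%) and 15.1% of all tested genes. It held for a larger share of FOXO genes and targets, 7 of 17 (41.2%), and for 5 of 19 ATF6 and XBP1 genes (26.3%).

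Aen, a p53-induced nuclease gene, had a log2 fold change of 1.36 (SE 0.45) and Mdm2, which encodes the ligase that degrades p53, one of 0.88 (SE 0.37). Bbc3, which encodes the pro-apoptotic protein PUMA, had 5, 1 and 4 counts in controls and 71, 46 and 111 in knockouts (log2 fold change 4.39, SE 1.33). Bbc3 is also known to respond to CHOP, so it does not belong to p53 alone. Of 3 genes listed as targets of both factors, Ddit4, an mTORC1 inhibitor, was at 3.32, 0.187 and 3.198 CPM in controls and 6.74, 1.38 and 49.9 CPM in knockouts. Atf3 was at 0.138, 4.84 and 1.22 CPM in controls and 3.09, 0.0276 and 0 CPM in knockouts, and Gdf15 had 0 counts in every sample.

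**Figure D3:**
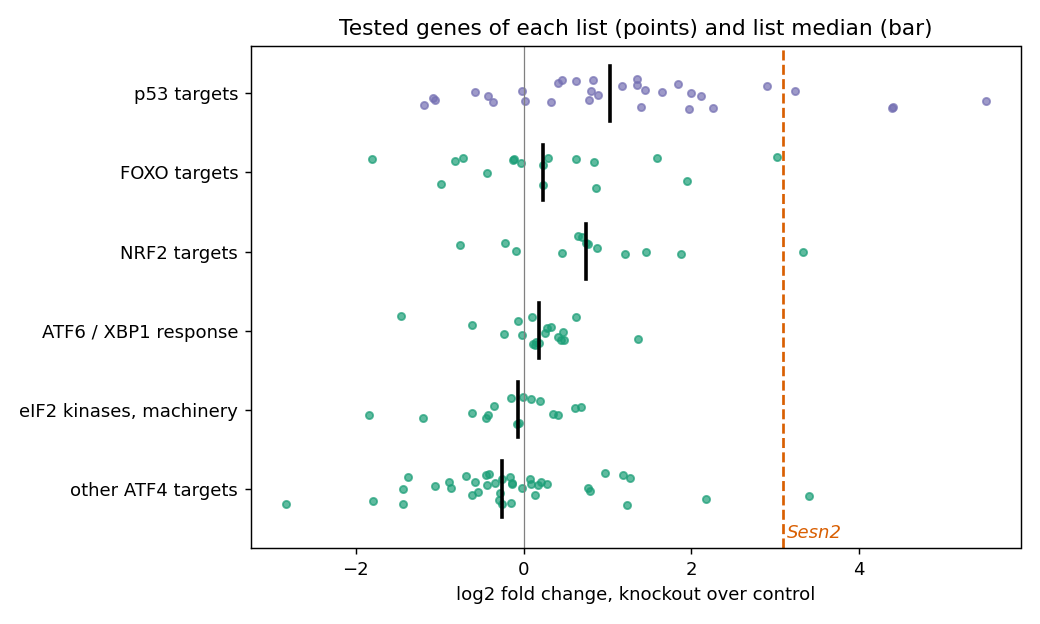
Fitted log2 fold change of knockout over control (x axis) for each tested gene of 6 lists (points), with the median of the list as a black bar and Sesn2 as a dashed line. The p53 targets have a median of 1.03 and the other ATF4 targets one of -0.25. Genes beyond the line of Sesn2 at 3.09 include the p53 targets Cdkn1a at 5.51 and Bbc3 at 4.39. The ATF4 target Cebpb at 3.41 and the NRF2 target Me1 at 3.34 lie beyond it as well.

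How alike Sesn2 was to each class over the samples was measured as a distance: the root mean square, over 6 samples, of the difference between the log2 CPM of 2 genes, each centred on its own mean. A distance of 0 means the same profile. The median distance of Sesn2 was 1.74 from p53 targets and 2.13 from the other ATF4 targets, beside 2.18 from all tested genes. NRF2 targets lay at 1.75, next to p53 targets, and the ATF6 and XBP1 genes were at 1.94 and the FOXO genes and targets at 2.03. Put as a percentile, 12.6% of all genes lay closer to Sesn2 than the p53 median, 13.0% closer than the NRF2 median and 45.8% closer than the ATF4 median. Sesn2 and the p53 list were both chosen with their higher level in the knockout known, and these distances include that step. The distances and percentiles are therefore no independent support. Among the genes of the 10, Atf4 was at a distance of 1.93, Ddit3 at 1.94, Ppp1r15a at 2.10, Asns at 2.15, Sesn1 at 2.29, Psat1 at 2.45, Sesn3 at 3.05 and Trib3 at 4.04. Cdkn1a was at 1.40, Ccng1 at 1.37 and Mdm2 at 1.89. The gap between the ATF4 and p53 medians was 0.40, and without knockout 3 it was 0.064. On the within-litter differences, the profile in which litter acts as a block, the gap was 1.05. There the step between genotypes enters in full, while centring on 6 samples splits it over both genotypes. The 1.05 is therefore on a larger scale than the 0.40 and does not by itself show a wider gap. For Sesn1 the order of the ATF4 and p53 lists was the other way round, with a median distance of 0.65 from ATF4 targets and 1.38 from p53 targets. The median was 0.90 from all genes, 0.57 from the eIF2 genes and 0.74 from the ATF6 and XBP1 genes. Psat1 lay at 0.25 from Sesn1. The distance is not scaled to the size of the changes, so genes that change little lie close to each other.

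The gap of 0.40 for Sesn2 was absent once the step between genotypes was taken out, and it was also small, at 0.064, without knockout 3. When each gene was centred within each genotype, which leaves only the differences among replicates, the median distance of Sesn2 was 1.36 from p53 targets and 1.35 from ATF4 targets, beside 1.46 from all genes. On those differences FOXO targets were the closest list, at 1.12.

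The 5 genes with the profile nearest to Sesn2, among 9627 with at least 5 CPM in either genotype, were Pstpip2 at a distance of 0.21, Gca at 0.38, Rpusd3 at 0.49, Ric3 at 0.57 and Slc11a1 at 0.68. None of the 5 was on the p53 or ATF4 list. With 32 and 39 tested genes these lists hold few of the candidates, so nothing is read from that. Pstpip2, known for its role in macrophages, was at 0.207, 1.58 and 1.36 CPM in controls and 1.64, 9.26 and 15.2 CPM in knockouts. Gca, which encodes the calcium-binding protein grancalcin of neutrophils and monocytes, was at 0.967, 5.27 and 3.15 CPM in controls and 7.88, 17.7 and 53.7 CPM in knockouts. Slc11a1 encodes a metal transporter of phagocytes. The nearest p53 target was Trp53inp1 at 1.08 and the nearest ATF4 target Slc7a11 at 1.18.

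**Figure D4:**
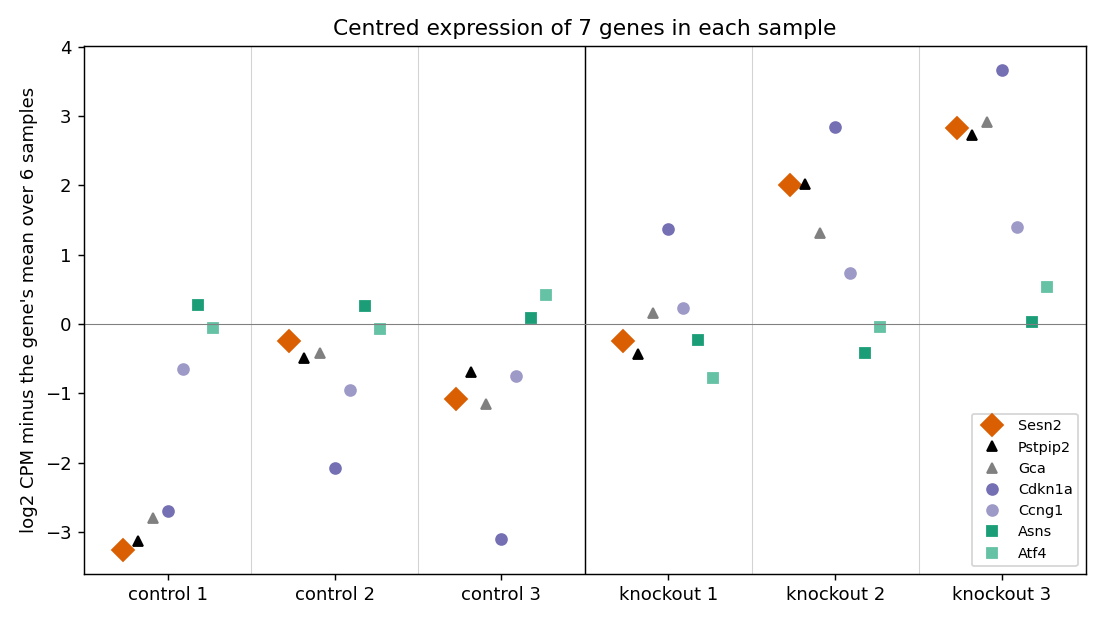
Log2 CPM of 7 genes in each sample (x axis), centred on the mean of the gene over the 6 samples (y axis). Sesn2 (diamonds) and Pstpip2 (black triangles) nearly coincide, at -3.26 and -3.13 in control 1 and at 2.82 and 2.73 in knockout 3, while Asns and Atf4 (squares) stay between -0.78 and 0.53.

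Myeloid marker sums were highest in knockout 3, as Sesn2 was, but overlapped between genotypes for macrophages and granulocytes. The summed level of 14 macrophage genes was 341, 559 and 388 CPM in controls and 869, 373 and 1800 CPM in knockouts, and 12 of the 13 tested had a positive log2 fold change. Of these 14 genes, 1 was at 0 in every control and none was at 0 in every knockout. Knockout 2, with the second highest level of Sesn2, had a macrophage sum inside the control range. The summed level of 9 granulocyte genes was 61.5, 59.5 and 124 CPM in controls and 69.6, 148 and 403 CPM in knockouts, in the same order over the knockouts as Sesn2, with knockout 1 inside the control range, and all 6 tested were positive. The 6 mast cell and basophil genes summed to 0.0691, 5.48 and 1.18 CPM in controls and 11.7, 6.42 and 18.2 CPM in knockouts, which did not overlap; 2 of them were at 0 in every control and 3 in every knockout. The 8 hepatocyte genes summed to 3.39 to 21.9 CPM in all samples. The part of myeloid cells in the level of Sesn2 was not tested.

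Targets of other factors known to act on sestrins were also counted. Of 13 NRF2 targets, all tested, 10 had a positive and 3 a negative log2 fold change, with a median of 0.74 (0.31 without knockout 3), and 3 had every knockout above every control (23.1%, against 6.39%). Hmox1, the heme-degrading enzyme, was at 43.0, 27.9 and 35.9 CPM in controls and 135, 39.8 and 218 CPM in knockouts, and DESeq2 called it higher. Knockout 2 was inside the control range for Hmox1, as it was for the macrophage sum, and the part of macrophages in the level of Hmox1 was not tested. Fth1, a ferritin subunit, was at 541, 415 and 565 CPM in controls and 644, 634 and 1312 CPM in knockouts. Gclm, of glutathione synthesis, had a log2 fold change of 0.87 (SE 0.36) and Ftl1 one of 1.21 (SE 0.56).

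The 17 tested FOXO genes and targets had a median log2 fold change of 0.23 (0.08 without knockout 3), with 9 positive and 8 negative. Cited2, a transcriptional co-regulator that maintains HSCs, was at 17.7, 13.1 and 16.7 CPM in controls and 56.6, 90.3 and 237.5 CPM in knockouts (log2 fold change 3.02, SE 0.53), and DESeq2 called it higher. Gabarapl1, of autophagy, was at 24.9, 28.8 and 24.8 CPM in controls and 35.5, 52.1 and 54.6 CPM in knockouts. Irs2, an adaptor of insulin signalling, had a log2 fold change of 1.59 (SE 0.91), and Cat, which encodes catalase, one of 0.84 (SE 0.48). Of 19 genes of the ATF6 and XBP1 arms of the unfolded protein response, 14 were positive with a median of 0.18. Edem1, which sends misfolded protein for degradation, was at 23.4, 30.4 and 16.9 CPM in controls and 38.3, 43.0 and 100.1 CPM in knockouts. Herpud1, of the same process and also an ATF4 target, was at 7.18, 7.35 and 7.58 CPM in controls and 2.21, 5.15 and 0.685 CPM in knockouts. The chaperone genes Hyou1 and Calr had log2 fold changes of 0.62 (SE 0.33) and 0.45 (SE 0.29). None of these 19 genes passed in edgeR or DESeq2. Edem1 was the 1 with an unadjusted edgeR p under 0.05, as 6.51% of all tested genes had.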

How the data were processed

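Per the submitters' processing notes, CASAVA 1.8.4, TopHat2, Picard 1.126, HTSeq 0.6.0, DESeq 3.0 and bedtools 2.17.0 were used with build mm10; their roles, the annotation and the strand setting are not given in the sources used here. The files deposited hold raw read counts for each gene symbol, 1 file per sample, with no normalization. The last 5 rows of each file tally reads given to no gene, 41.0% to 51.0% of all reads listed, and were left out; among them are reads with more than 1 alignment. No molecular tags are described, so counting floors cover counting error only.

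The genotype label gave the groups and the litter label the sample numbers. Genes were kept with filterByExpr (13646; 9 of the 10 genes), scaled by TMM and tested with edgeR 4.0.16 (R 4.3.3) with genotype as the 1 term and p-values adjusted by Benjamini and Hochberg's method over all tested genes. Each SE was derived from the fold change and its F statistic. DESeq2 1.42.0 and limma 3.58.1 (voom) were alternatives. Both, and edgeR with and without the litter block, were run on simulated counts that held no litter or cell type effects. The other settings were not run on simulated counts, and nothing is read from those runs. Log2 CPM used a prior count of 2. Exon lengths and positions are from GENCODE M21 (GRCm38). P-values of the main test measure only the spread between these samples, which come from 3 litters. That spread may hold technical as well as biological differences, and the main test leaves the litter pairing out.

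The genes and lists were chosen with earlier results of these data known. All genes of the set were named, with up to 4 genes per list by smallest unadjusted p, the p53 references Cdkn1a, Ccng1 and Mdm2, and the 5 genes nearest to Sesn2 and to Trib3. Of 267 listed symbols, 3 matched under an older name and 1 did not match.

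The litter numbers pair the samples, since the labels name the litters. The correlation of deviations from the genotype means within a litter was -0.0224, -0.0752 and 0.00336 in litters 1 to 3.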

Additional observations from a re-analysis of the deposited data

How the results depend on the processing

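The count of genes called by edgeR, 0, was 1 when no filter was applied and 1 with at least 10 counts in every sample, Cdkn1a both times, and 138 with DESeq2. It stayed at 0 with litter as a replicate block, under the 3 other scalings, with limma-voom and in the 6 fits that left out a sample (range 0 to 0). No call on any of the 10 genes changed with the block. Among them, DESeq2 moved Sesn2 alone past the threshold (DESeq2 adjusted p = 0.0313; its log2 fold change was 2.38 to 3.81 over 14 alternatives). When 1 sample was left out, Atf4 ranged from -0.47 to 0.16 and Ppp1r15a from -0.20 to 0.46, so both changed sign; Ppp1r15a did so without knockout 1. The median of all genes, 0.01, was -0.12 with the block, -0.10 under upper-quartile scaling and -0.14 with limma-voom. The list medians kept their sign in all 14 alternatives each, at -0.41 to -0.15 for ATF4 targets and 0.71 to 1.41 for p53 targets. These medians were taken over the list genes fitted in each setting, which can differ from those of the main fit. Over the 32 p53 targets of the main fit the median without knockout 3 was 0.68. The distance gap of 0.40 was 0.064 to 0.41 when 1 sample was left out, the low end being without knockout 3. With the replicate block it was 1.05, on within-litter differences that are not on the same scale. Leaving out knockout 3 from the list counts and single controls from the bound of Chac1 was chosen after seeing the data. Trib3 could not be fitted with at least 10 counts in every sample, and Chac1 has no value in the main comparison. With 0 to 53 counts, the depth limits what can be said of Chac1, and likewise of Trib3.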

Other observations

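The 29 genes through which sestrins act on mTORC1 (the GATOR complexes, Rag GTPases, Ragulator, mTORC1 itself and AMPK subunits) were all tested. They had 13 positive and 16 negative log2 fold changes with a median of -0.04, and none passed in edgeR or DESeq2. Sec13, a GATOR2 subunit that also serves in vesicle coats, was at 21.2, 22.7 and 23.4 CPM in controls and 8.23, 11.5 and 12.9 CPM in knockouts, with every knockout below every control. It was the 1 gene of the 29 to do so (3.45%, against 7.74% of all tested genes). Seh1l, another GATOR2 subunit, had a log2 fold change of -0.66 (SE 0.36). The AMPK subunit genes Prkab1 and Prkaa1 had log2 fold changes of 0.54 (SE 0.38) and -0.41 (SE 0.29).

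Among 9628 genes whose control or knockout mean reached 5 CPM, those with the profile nearest to Trib3 were Lepre1, Klhl13, Casp9, Zfp9 and Caskin2, at distances of 1.15 to 1.33, with 1 predicted gene or clone among them left unnamed. Among all tested genes, whatever their level, the nearest gene was at 0.22 for Trib3 and 0.21 for Sesn2.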
